A study of Mus musculus with 8 samples.

Results

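Antigen presentation was read through 10 genes of mouse liver, chosen by name from a gene table of 19348 genes. They were the class I chains H2-K1, H2-D1 and B2m, the class II chains H2-Aa, H2-Ab1 and H2-Eb1 with their partner Cd74, and the class I processing genes Tap1, Psmb8 and Psmb9. Each stood on 1 line of the table, and all 10 passed the filter on low counts that left 12338 genes for testing. The series set liver of Stab1 knock-out mice at 5 weeks of age (5 RNA sequencing libraries) beside liver of wild-type mice of that age (3 libraries). The Stab1 product, stabilin-1, is an endocytic receptor found on liver sinusoidal endothelium and some macrophages. The strain, the sex, the design of the deleted allele and whether each library came from its own animal are not stated in the labels. The p-values below therefore describe the spread between libraries, part of which may be technical.

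Class I molecules sit on most nucleated cells and show them to CD8 T cells with peptides cut in the cytosol. The proteasome makes those peptides, and in cells exposed to interferon the inducible subunits Psmb8, Psmb9 and Psmb10 replace the constitutive subunits Psmb5, Psmb6 and Psmb7. The TAP transporter carries the peptides into the endoplasmic reticulum, where a heavy chain such as H2-K1 or H2-D1 joins B2m. Class II molecules are made mainly by dendritic cells, B cells and macrophages, carry peptides from endocytosed proteins and need the invariant chain Cd74 for their assembly. In the liver, Kupffer cells and sinusoidal endothelial cells are known to present antigen as well.

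The targeted gene matched the labels. Stab1 had 7, 5, 16, 13 and 11 reads in knockout libraries 1 to 5 and 594, 536 and 474 reads in wild-type libraries 1 to 3. Library totals ran from 4.85 to 10.8 M (mega) reads, and hepatocyte markers, which identify the tissue, summed to 92900 to 157800 CPM in knockout and 171900 to 177200 CPM in wild-type libraries. CPM here is reads scaled to library size after scaling by the trimmed mean of M values. Knockout library 1 stood apart. It was the shallowest, at 4.85 M reads, and it held 3 reads of Xist, where the others held 4445 to 8222. For Ddx3y, which is Y-linked, it held 320 reads and the others 0 to 4. By these reads it was male and the others female. Results are therefore given with and without it.

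No antigen presentation gene passed the edgeR quasi-likelihood test. With all 8 libraries 0 of the 10 had an adjusted p below 0.05, as against 0.243% of all tested genes (30 of 12338), and 2 of the 10, Psmb8 and Psmb9, had an unadjusted p below 0.05, both higher in knockout liver, as against 13.7% of all tested genes in either direction and 7.82% on the higher side. Without knockout library 1 edgeR again called 0 of the 10, as against 0.993% of genes. The DESeq2 Wald test called 1 of the 10, Psmb9, as against 1.03% of the genes it tested. Fitted log2 fold changes, positive where knockout liver was higher, were above 0 for 9 of the 10 genes and had a median of 0.24, against 6056 of 12338 and a median of -0.01 over all tested genes. These counts moved with single libraries and settings. Above 0 were 7 of the 10 without knockout library 4, with the replicate number as a block in the fit and with a gene length correction described below. All 10 were above 0 without knockout library 2 (6143 of 12312 tested genes) or wild-type library 1 (6200 of 12465). The median was 0.15 with wild-type library 2 left out or with the block, 0.10 with the length correction and 0.35 without wild-type library 3. The 2 genes at an unadjusted p below 0.05 were 1 without wild-type library 1 or 2, with the block and with the length correction. Of all tested genes, 387 of 12465, 344 of 12469, 203 of 12338 and 835 of 12338 were higher at such a p in these fits. The 2 were 3 without knockout library 3 (1089 of 12237 tested genes higher) or wild-type library 3 (1511 of 12487). The block leaves knockout libraries 4 and 5 out of the genotype difference, since no wild-type library shares their replicate numbers. For H2-D1, Psmb8 and Psmb9 all 5 knockout libraries lay above all 3 wild-type libraries, 3 of 10 genes as against 3.04% of tested genes. The same 3 genes were separated in this way without knockout library 1, where the share of tested genes was 9.42%. In bulk liver RNA, a difference in the number of cells of a type and one in RNA per cell cannot be told apart.

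**Figure D1:**
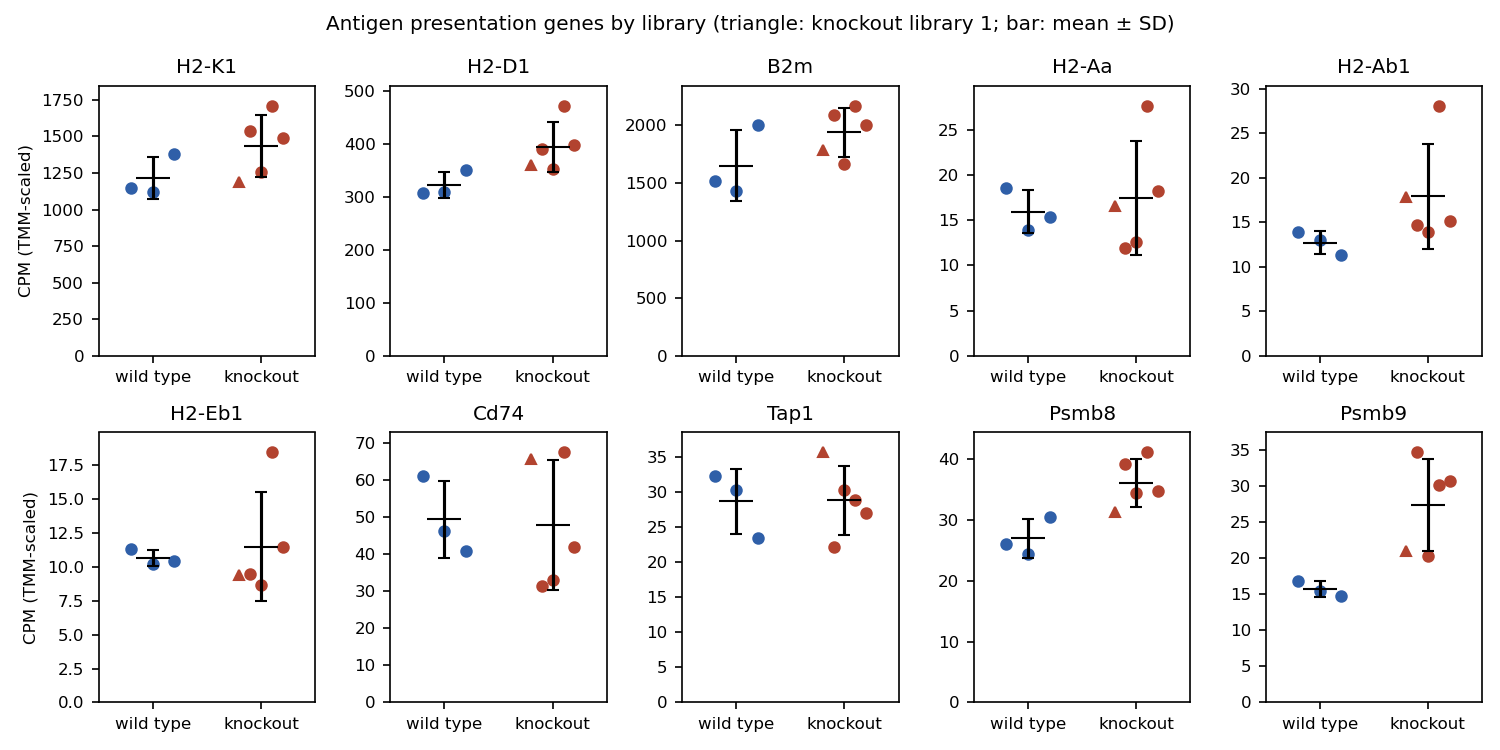
CPM of the 10 genes (vertical axes, each from 0) in 3 wild-type and 5 knockout libraries, with 1 point per library and bars for mean ± SD; the triangle is knockout library 1. The groups are apart for H2-D1, Psmb8 and Psmb9 and overlap for the other 7 genes.

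Levels set per gene length gave the order of abundance. Read density (RPKM with the same library scaling as the CPM) averaged 2135 for B2m, 809.8 for H2-K1 and 211.4 for H2-D1 over the 8 libraries, and these 3 kept their order in all 8. The next levels were 33.9 for Cd74, 28.5 for Psmb9 and 26.7 for Psmb8. Those neighbours did not keep their order: Cd74 was above Psmb9 in 2 of 5 knockout and 3 of 3 wild-type libraries, and Psmb9 above Psmb8 in 4 of 5 knockout and 0 of 3 wild-type libraries. On the same per-length scale H2-Aa was at 15.6, H2-Ab1 at 13.4, Tap1 at 9.74 and H2-Eb1 at 6.69. Class I chains were thus the most abundant of the 10 in this tissue. H2-Eb1 was the lowest, with reads over 59.7% to 72.5% of its length. H2-D1 was covered over 79.9% to 80.9% of its length in all libraries.

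H2-K1 (gene identifier 14972) encodes the K heavy chain of class I. Its level was 1187, 1533, 1253, 1707 and 1487 CPM in knockout libraries 1 to 5 and 1146, 1119 and 1382 CPM in wild-type libraries 1 to 3. The groups overlapped, with knockout libraries 1 and 3 below wild-type library 3. The fitted difference (log2 fold change) was 0.24 (SE 0.17, edgeR adjusted p = 0.506) and, without knockout library 1, 0.29 (adjusted p = 0.254).

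H2-D1 (14964), the D heavy chain, was at 359.7, 389.7, 351.6, 471.0 and 398.4 CPM in the knockout libraries and at 306.3, 309.2 and 350.1 CPM in the wild-type libraries. The groups did not overlap, but the lowest knockout library, 3, lay next to wild-type library 3. The fitted difference (log2 fold change) was 0.29 (SE 0.15, 95% interval -0.04 to 0.62, edgeR adjusted p = 0.397), and 0.32 without knockout library 1 (adjusted p = 0.206). H2-K1 and H2-D1 have close relatives among the H2-Q and H2-T genes, and the sources used here do not say how reads that fit several of them were assigned. Within a library the per-length level of H2-K1 was 3.43 to 4.09 times that of H2-D1 in the knockout group and 3.76 to 4.11 times in the other group, so the balance of the chains overlapped between genotypes.

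B2m (12010), the light chain shared by all class I molecules, was at 1785, 2091, 1660, 2167 and 2001 CPM in knockout libraries 1 to 5 and 1516, 1434 and 2003 CPM in wild-type libraries 1 to 3. Wild-type library 3 lay inside the knockout range and the other wild-type libraries below it. Fitted over all libraries, the log2 fold change was 0.23 (SE 0.17, edgeR adjusted p = 0.51), 0.26 without knockout library 1 (adjusted p = 0.345) and -0.07 after the correction for gene length. Leaving out wild-type library 2 gave 0.13, and leaving out library 3 of that group gave 0.40. In all 3 class I genes knockout library 4 was the highest and wild-type libraries 1 and 2 were the lowest. The same was true of the processing gene Psmb8, described below.

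The stretches before the starts of these 3 genes are shown because the class I genes were high and low in the same libraries. For H2-K1 the first of 2 listed starts was used. Each is the 250 bases before the start in RefSeq on build GRCm38.p6, read along the gene: H2-K1 at chr17:34000348-34000597 on the minus strand, H2-D1 at chr17:35262844-35263093 on the plus strand and B2m at chr2:122147437-122147686 on the plus strand. Capitals mark any of 6 motifs, whose letters were chosen after the windows had been read.
H2-K1: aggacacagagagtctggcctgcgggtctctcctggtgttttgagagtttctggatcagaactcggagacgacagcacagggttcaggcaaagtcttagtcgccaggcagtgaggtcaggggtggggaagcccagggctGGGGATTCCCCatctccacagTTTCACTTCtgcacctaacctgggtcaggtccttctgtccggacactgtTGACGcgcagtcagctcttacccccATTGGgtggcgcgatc
H2-D1: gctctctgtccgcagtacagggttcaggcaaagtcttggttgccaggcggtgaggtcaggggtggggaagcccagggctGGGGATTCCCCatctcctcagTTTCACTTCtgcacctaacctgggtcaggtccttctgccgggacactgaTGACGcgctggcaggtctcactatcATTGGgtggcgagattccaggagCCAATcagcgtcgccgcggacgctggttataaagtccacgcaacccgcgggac
B2m: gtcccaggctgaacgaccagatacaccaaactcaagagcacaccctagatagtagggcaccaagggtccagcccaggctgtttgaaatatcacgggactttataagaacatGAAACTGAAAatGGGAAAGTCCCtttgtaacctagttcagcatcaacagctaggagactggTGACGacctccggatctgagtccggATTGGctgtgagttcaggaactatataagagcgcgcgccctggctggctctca
The motifs were searched on both strands. They were ATTGG (the CCAAT box), TGACG (the core of a cyclic AMP response element), GGGA and CC with any 4 bases between them (an NF-kB type site), GAANNGAAA and the overlapping GAAA with GAAA 2 bases on (forms 1 and 2 of an interferon response element) and TTCNNNGAA (a GAS element). All 3 windows held ATTGG, found in 33.8% of 32851 promoter windows of that length, TGACG, found in 17.8%, and the NF-kB type site, found in 17.6%. H2-K1 and H2-D1 held GAANNGAAA (6.31% of windows), and B2m held form 2 (2.98%). A match describes the letters and is not a measured site. The windows of H2-K1 and H2-D1 had 161 of 177 aligned positions identical (91%) over their best matching stretch, where the shared motifs lie. Aligned from end to end they had 54.8%, because the annotated starts differ in place.

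Psmb9 had the largest fold change of the 10. Psmb9 (16912) encodes the inducible proteasome subunit that takes the place of Psmb6. It had 20.9, 34.7, 20.3, 30.2 and 30.7 CPM in knockout libraries 1 to 5 and 16.9, 15.5 and 14.7 CPM in wild-type libraries 1 to 3. Knockout libraries 2, 4 and 5 were high, and libraries 1 and 3 lay between them and the wild-type group. The mean was 27.4 ± 6.41 CPM (SD, n = 5) against 15.7 ± 1.11 CPM (SD, n = 3). Fitted over all libraries, the log2 fold change was 0.80 (SE 0.20, 95% interval 0.35 to 1.25), with an edgeR adjusted p of 0.26 and an unadjusted p of 0.00239. Without knockout library 1 it was 0.87 (SE 0.19, edgeR adjusted p = 0.0602). The DESeq2 Wald test gave an adjusted p of 0.0436 with all libraries. Run with DESeq2 and without knockout library 1, which was added once the data had been seen and called 8.61% of genes, it was 0.00307. The call therefore turned on the tool.

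Psmb8 (16913), the inducible chymotrypsin-like subunit, was at 31.3, 39.1, 34.4, 41.1 and 34.7 CPM in the knockout libraries and at 26.0, 24.3 and 30.6 CPM in the wild-type libraries. All knockout libraries were higher, with knockout library 1 next to wild-type library 3. Its log2 fold change was 0.42 (SE 0.14, 95% interval 0.11 to 0.74, edgeR adjusted p = 0.329), and 0.46 without knockout library 1 (adjusted p = 0.0945). DESeq2 did not call it (adjusted p = 0.204).

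Tap1 (21354), a subunit of the peptide transporter, was at 35.6, 22.2, 30.3, 28.8 and 27.0 CPM in the knockout libraries and at 32.2, 30.3 and 23.4 CPM in the wild-type libraries. The groups overlapped, and the highest and the lowest of the 8 libraries were both knockout. Its log2 fold change was 0.00 (SE 0.18, 95% interval -0.38 to 0.39, edgeR adjusted p = 0.996), and -0.09 without knockout library 1 (adjusted p = 0.758). Psmb9 and Tap1 start on either side of a short gap and are read in opposite directions. Their ratio per length was 2.15 to 5.72 in the knockout group and 1.87 to 2.30 in the wild-type group, which overlap.

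The gap is shown because its flanking genes were not high in the same libraries. RefSeq places 225 bases between the starts, at chr17:34187331-34187555 (GRCm38.p6), given here on the plus strand, on which Tap1 is read. Capitals mark matches to the same 6 motifs.
Psmb9-Tap1 gap: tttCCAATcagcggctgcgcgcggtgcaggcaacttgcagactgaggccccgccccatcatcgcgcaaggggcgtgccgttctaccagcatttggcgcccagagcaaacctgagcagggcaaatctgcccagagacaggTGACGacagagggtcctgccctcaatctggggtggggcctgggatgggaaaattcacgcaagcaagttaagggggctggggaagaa
ATTGG on the minus strand and TGACG were found, motifs present in 31.6% and 16.8% of promoter windows cut to that length. The other 4 did not match. The window of Psmb8 held TTCNNNGAA, present in 7.02% of windows of 250 bases, and none of the other motifs.

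Gene length moved with these differences. Tested genes under 1000 bases, among them Psmb9 (806 bases) and B2m (858 bases), had a median log2 fold change of 0.37 over 854 genes. The median was 0.12 over 2814 genes of 1000 to 2000 bases, where 7 of the 10 lie, -0.04 over 5095 genes of 2000 to 4000 bases, where Tap1 lies, and -0.13 over 3575 longer genes. With a length curve fitted in each library, an alternative chosen after seeing the data, the median of the 10 genes was 0.10. Psmb9 was then at 0.43 (edgeR adjusted p = 0.392), Psmb8 at 0.23, H2-D1 at 0.22 and B2m at -0.07. The part that length plays in the single differences was not tested beyond this correction.

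**Figure D2:**
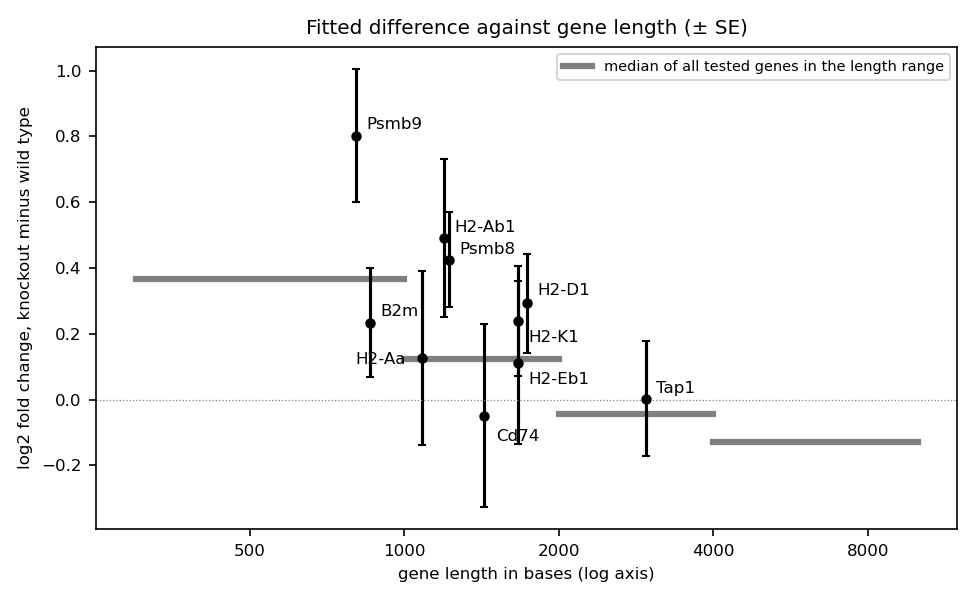
Log2 fold change, knockout minus wild type (vertical axis), against gene length in bases (horizontal log axis), for the 10 genes as points with their SE and for all tested genes as a grey bar at the median of each length range, the outermost bars being shortened to stay on the plot. The medians run from 0.37 for the shortest genes to -0.13 for the longest, and Psmb9 at 0.80 lies above the median of its range.

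**Figure D3:**
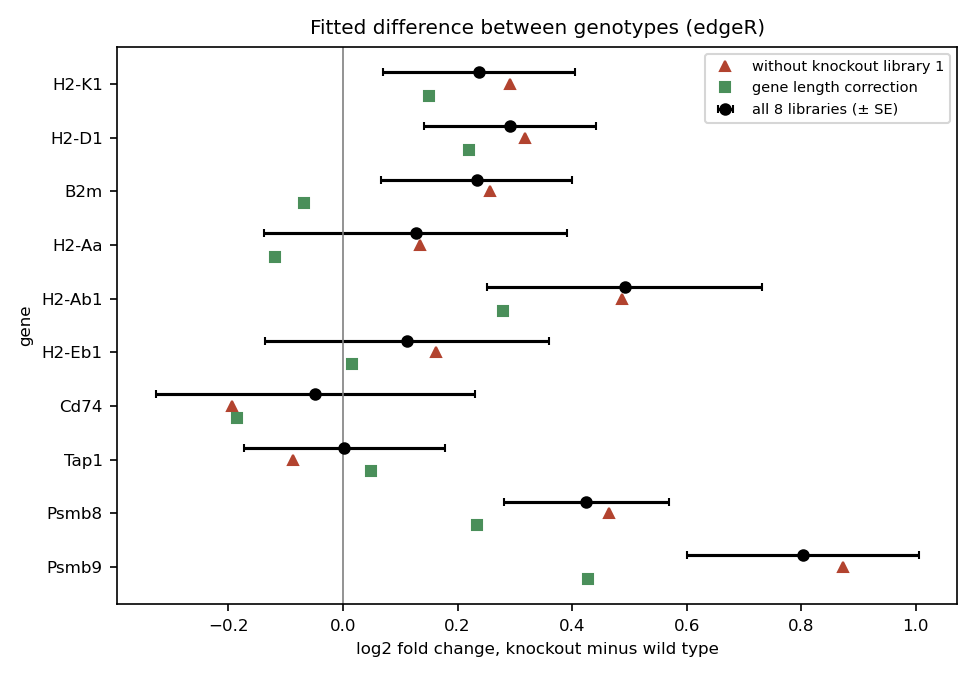
Log2 fold change, knockout minus wild type (horizontal axis), of each gene with all 8 libraries (circles, ± SE), without knockout library 1 (triangles) and with the gene length correction (squares). Psmb9 is the farthest to the right in all 3 fits, and B2m and H2-Aa pass to the left of 0 with the correction.

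Inducible subunits were compared with the constitutive subunits they replace, as a ratio within each library that needs no library scaling. Of 3 ratios, Psmb9 to Psmb6 had the largest difference. Its log2 ratio of reads per length was -1.98, -1.94, -2.26, -1.86 and -2.05 in knockout libraries 1 to 5 and -1.97, -2.19 and -2.85 in wild-type libraries 1 to 3. The groups overlapped, since wild-type library 1 lay among the knockout libraries. The mean difference was 0.32 (exact two-sided permutation p = 0.196, adjusted over 3 ratios 0.589), and 0.06 without wild-type library 3 (0.31 without knockout library 1). Psmb8 to Psmb5 differed by -0.01 (exact permutation p = 0.964) and Psmb10 to Psmb7 by -0.06 (exact permutation p = 0.643). With 56 divisions of the libraries the smallest p is 0.0179. The constitutive subunits themselves had log2 fold changes of 0.45 for Psmb5 (SE 0.19, edgeR adjusted p = 0.352), 0.44 for Psmb6 and 0.21 for Psmb7, and Psmb10 had 0.13 (0.01 with wild-type library 1 or 2 left out). Constitutive and inducible catalytic subunits thus had fitted values on the same side of 0, except that Psmb7 and Psmb10 passed below 0 with the gene length correction, and none was called by edgeR.

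**Figure D4:**
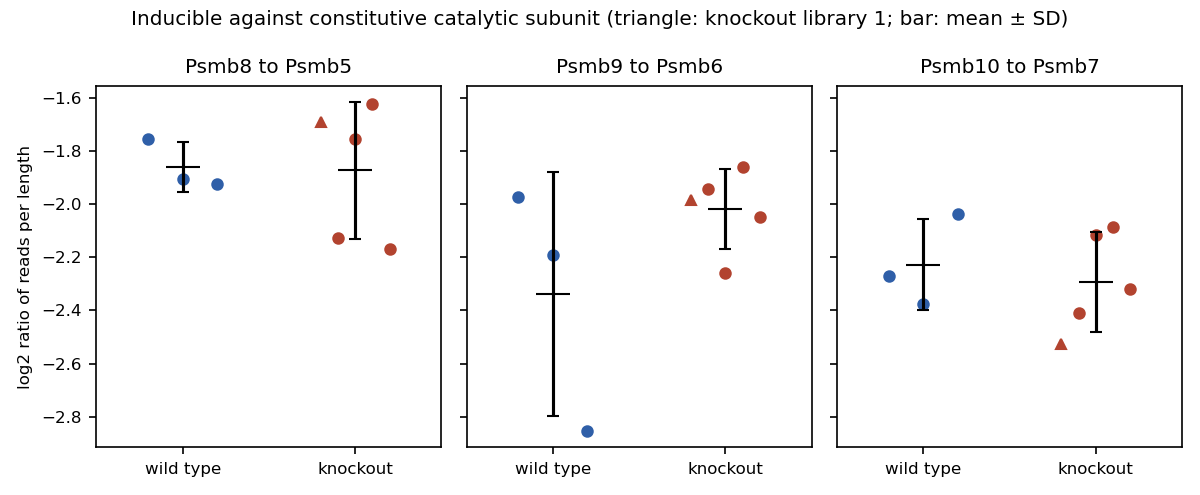
Log2 ratio of reads per length of each inducible to each constitutive catalytic subunit (vertical axis) in wild-type and knockout libraries, 1 point per library, bars for mean ± SD and a triangle for knockout library 1. All 3 pairs of groups overlap, and wild-type library 3 is the lowest point of Psmb9 to Psmb6 at -2.85.

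Class II genes did not separate the genotypes, and knockout library 4 had the highest level of all 4. H2-Aa (14960), the alpha chain of I-A, was at 16.6, 11.9, 12.6, 27.6 and 18.2 CPM in knockout libraries 1 to 5 and at 18.6, 13.9 and 15.3 CPM in wild-type libraries 1 to 3. The wild-type libraries lay inside the knockout range. For this gene the log2 fold change was 0.13 (SE 0.26, edgeR adjusted p = 0.832), 0.14 without knockout library 1 and -0.11 without knockout library 4.

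H2-Ab1 (14961), the beta chain of I-A, was at 17.8, 14.7, 13.9, 28.1 and 15.1 CPM in the knockout libraries and at 13.9, 13.0 and 11.3 CPM in the wild-type libraries. Knockout library 3 (13.86) lay just under wild-type library 1 (13.88), and the other knockout libraries lay above all wild-type libraries. For this gene the log2 fold change was 0.49 (SE 0.24, 95% interval -0.04 to 1.02, edgeR adjusted p = 0.384), 0.49 without knockout library 1 and 0.27 without knockout library 4.

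H2-Eb1 (14969), the beta chain of I-E, was at 9.39, 9.47, 8.67, 18.4 and 11.4 CPM in the knockout libraries and at 11.3, 10.2 and 10.4 CPM in the wild-type libraries. Knockout libraries 1 to 3 were below all wild-type libraries, and library 4 was far above them. EdgeR put the log2 fold change at 0.11 (SE 0.25, edgeR adjusted p = 0.841), 0.16 without knockout library 1 and -0.13 without knockout library 4. Cd74 (16149), the invariant chain, was at 65.9, 31.4, 33.0, 67.6 and 42.0 CPM in the knockout and 61.1, 46.4 and 41.0 CPM in the wild-type libraries. Knockout libraries 1 and 4 and wild-type library 1 were high, and knockout libraries 2 and 3 were low. EdgeR put the log2 fold change at -0.05 (SE 0.28, edgeR adjusted p = 0.944), and -0.19 without knockout library 1.

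Averaged over the 4 class II genes, log2 CPM relative to the mean of the 8 libraries was 0.72 in knockout library 4, -0.32 in library 2 and -0.33 in library 3, against 0.12, -0.14 and -0.19 in the wild-type libraries. The spread among knockout libraries thus held the wild-type range within it. The median log2 fold change of the 4 genes was 0.12, and -0.12 without knockout library 4. Knockout library 4 also had the highest summed level of T and NK cell markers, at 11.8 CPM. The sums were 6.35 to 10.2 CPM in the other knockout and 8.12 to 9.72 CPM in the wild-type libraries. Only 3 of these 11 markers passed the filter on low counts, and Cd3e and Ncr1 had 0 reads in some library. B cell markers summed to 12.2 CPM in knockout library 4, the highest of the knockout group (6.13 to 12.2), with 10.5 to 14.2 in the wild-type group. Dendritic cell markers and Kupffer cell and macrophage markers were not highest there: they summed to 9.64 and 869.1 CPM in knockout library 4 and to 10.8 and 897.2 CPM in knockout library 1. The part of these markers in the class II levels was not tested.

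**Figure D5:**
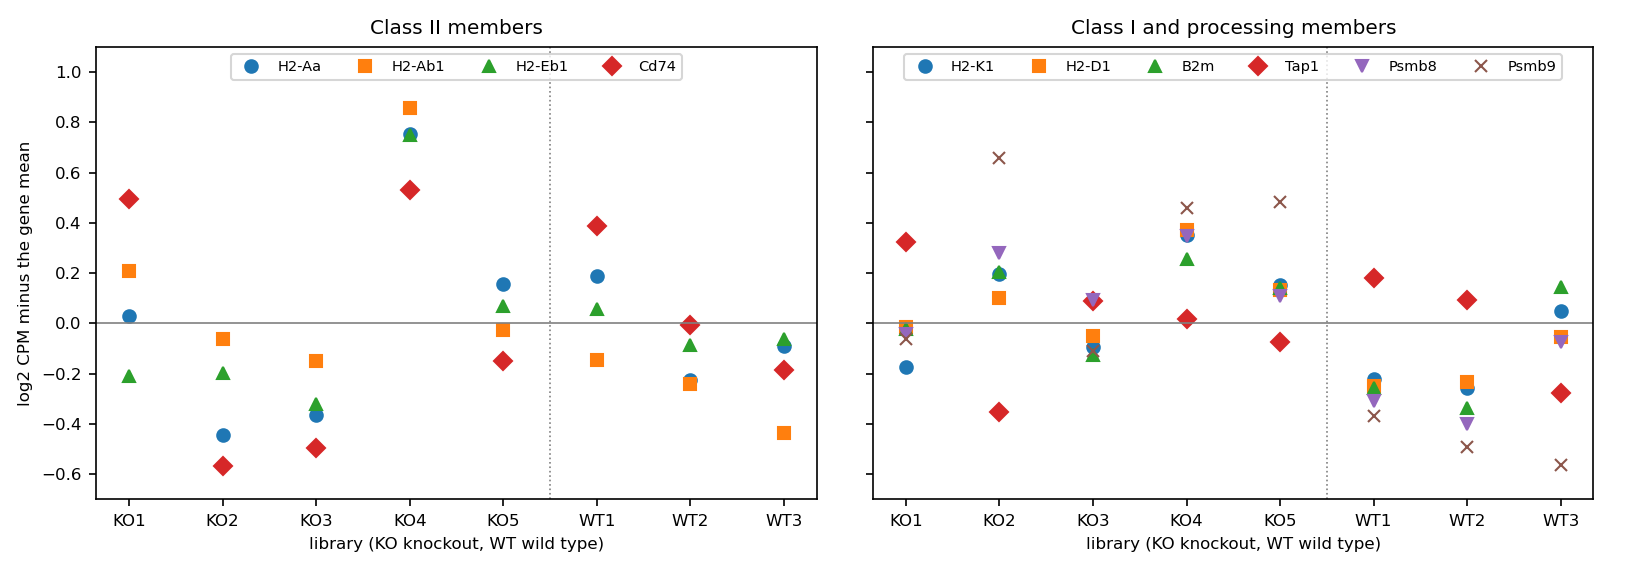
Log2 CPM minus the mean of the gene over 8 libraries (vertical axis) in each knockout (KO) and wild-type (WT) library, for 4 class II genes on the left and 6 class I and processing genes on the right. All 4 class II genes are at their highest in KO4, and Psmb9 is below its mean in WT1 to WT3 and, by less, in KO1 and KO3.

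Other cell markers were counted in the same way. Dendritic cell markers, of which 5 of 11 had 0 reads in some library (Flt3, Cd209a, Ccr7, Clec10a and Siglech), summed to 7.17 to 10.8 CPM in knockout and 7.19 to 9.62 CPM in wild-type libraries. Among B cell markers, Pax5 was at 0 in some library. Kupffer cell and macrophage markers summed to 620.9 to 897.2 CPM in knockout and 522 to 703.8 CPM in wild-type libraries, which overlap. Monocyte and neutrophil markers summed to 69.0 to 93.6 CPM against 53.7 to 64.8 CPM, with all knockout libraries higher. Sinusoidal endothelial markers summed to 347.4 to 417.6 CPM against 421.6 to 574.7 CPM and hepatocyte markers to the values above, with all knockout libraries lower. Each of these 3 separations was absent once the most abundant gene of the list was left out, which was done after the sums were seen. Without Lyz2 the monocyte and neutrophil sums were 16.9 to 28.8 against 13.0 to 18.5 CPM, without Clec4g the endothelial sums were 281.6 to 367.7 against 337.7 to 505.1 CPM, and without Alb, the albumin gene, the hepatocyte sums were 46380 to 56400 against 46800 to 55350 CPM. The edgeR log2 fold change was below 0 for 11 of 12 endothelial (median -0.29) and 9 of 13 hepatocyte markers (median -0.17). It was above 0 for all 7 tested monocyte and neutrophil markers (median 0.44). Over all tested genes, 6282 of 12338 were below 0. Without wild-type library 1 the endothelial count was 9 of 12. The monocyte and neutrophil count was then 6 of 7. With the gene length correction 6 of 7 monocyte and neutrophil markers were above 0 (median 0.35). In that fit 11 of 12 endothelial and 11 of 13 hepatocyte markers were below 0. EdgeR with all libraries called no marker of these 7 lists, as against 0.243% of tested genes. DESeq2 called S100a9 and Tat, as against 1.03% of the genes it tested, and both were named after their values were seen. S100a9, a neutrophil calcium-binding protein, was at 5.83 ± 1.51 CPM (SD, n = 5) against 2.54 ± 0.925 CPM (SD, n = 3), groups apart (log2 fold change 1.22, edgeR adjusted p = 0.253, DESeq2 adjusted p = 0.034). Tat, the tyrosine aminotransferase of hepatocytes, was at 424.9 ± 71.5 against 848.6 ± 337.1 CPM, groups overlapping (log2 fold change -0.998, edgeR adjusted p = 0.26, DESeq2 adjusted p = 0.0276), and edgeR called it without wild-type library 3 (adjusted p = 0.0143). DESeq2 without knockout library 1, which called 8.61% of the genes it tested, called both again. It also called Kdr and Dnase1l3 of endothelium, both lower, and Apoc3 of hepatocytes, higher. In that fit 9 of 13 hepatocyte markers were below 0. The part of these markers in the class I and processing levels, where knockout libraries were also higher for 3 genes, was not tested.

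The genes whose pattern over the 8 libraries lay nearest to the class II mean were sought among 12136 genes of at least 1 CPM. The measure was the root mean square difference of centred log2 CPM, and the class II genes themselves entered the mean. The 5 nearest were H2-Aa (0.10), Tmem26 (0.10), Atp2a3 (0.14), H2-Eb1 (0.14) and Car7 (0.15). This is a description of 8 libraries, and in the class II mean knockout library 4 lies farthest from the others.

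Other genes of the same pathways did not pass the edgeR test in either direction. Of all tested genes 0.243% were called and 13.7% had an unadjusted p below 0.05. The counts of each list below stand beside these shares. Of 24 other class I and class I-like genes, 16 were tested, 0 were called, 1 had an unadjusted p below 0.05 and the median log2 fold change was 0.22, with 14 above 0. That median was 0.12 without knockout library 5 and 0.13 without knockout library 2 (15 tested in each), 0.08 with the replicate block and 0.10 with the gene length correction, with 10 above 0 in both of the last. H2-Q10, a class I protein secreted by hepatocytes, was at 2114 ± 140.1 CPM (SD, n = 5) against 2018 ± 64.7 CPM (SD, n = 3), which overlap (0.07, edgeR adjusted p = 0.822). H2-Q9 had a log2 fold change of 0.77 (SE 0.29) and H2-Q1 of 0.78 (SE 0.39). H2-Q1 was at 11.9 CPM in its lowest knockout library, library 1, and without that library its value was 0.98 (edgeR adjusted p = 0.0716, DESeq2 adjusted p = 0.00524). The DESeq2 fit without that library called 8.61% of genes. H2-T10 was at 0.40 and H2-T24 at -0.36.

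Other class I processing genes were spread around 0. All 16 were tested, 0 were called and 0 had an unadjusted p below 0.05, and their median was -0.07 (-0.01 with wild-type library 2 left out, -0.15 with library 3 of that group left out). Psme1, a proteasome activator subunit, had a log2 fold change of 0.32 (SE 0.17), Psme3, another activator, -0.27, and the chaperone Canx -0.22. Tap2, the partner of Tap1 in the transporter, had -0.30 (SE 0.19, edgeR adjusted p = 0.474). Of 12 other class II genes and class II processing genes, 9 were tested, 0 were called, 1 had an unadjusted p below 0.05 and the median was 0.27. Leaving out wild-type library 2 gave 0.14, leaving out knockout library 4 gave 0.17, and the replicate block gave 0.11. H2-DMa, which helps load class II molecules, was at 4.67 ± 1.06 against 2.88 ± 0.704 CPM (0.69, SE 0.27, edgeR adjusted p = 0.338). H2-DMb1 had 0.48, and the lysosomal proteases Ctsl and Lgmn 0.28 and 0.21.

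Regulators of these genes included 3 with an unadjusted p below 0.05, all lower in knockout liver, as against 5.91% of all tested genes on that side, and 0 of 19 tested were called (median -0.09). The 3 were 1 without wild-type library 1 or 2, where 371 of 12465 and 389 of 12469 tested genes were lower at such a p. They were 5 without wild-type library 3, as against 1281 of 12487 tested genes. In that fit 2 regulators were also higher at such a p, as against 1511 tested genes. The median ran from -0.04 without wild-type library 1 to -0.14 without wild-type library 3, and was -0.01 with the gene length correction. Nfyb, a subunit of the CCAAT-binding factor NF-Y, was at 31.3 ± 6.76 against 47.6 ± 7.29 CPM (-0.60, SE 0.18, edgeR adjusted p = 0.305). Rfx5, a subunit of the RFX factor of class II promoters, had -0.65 (SE 0.23), and -0.81 without knockout library 1 (edgeR adjusted p = 0.0716, DESeq2 adjusted p = 0.0148). The DESeq2 fit without that library called 8.61% of genes. Irf1, an interferon-regulated activator, had -0.44, and Nfkb1 had -0.33. Nlrc5, the class I transactivator, was at 25.6 ± 3.22 against 20.3 ± 5.50 CPM (0.33, edgeR adjusted p = 0.436; 0.14 with wild-type library 2 left out, 0.54 with library 3 of that group left out). Ciita, the class II transactivator, did not pass the filter, at 0.346 to 0.849 CPM in knockout and 0.701 to 1.98 CPM in wild-type libraries.

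Class II promoters are commonly described with X and Y boxes, the Y box being a CCAAT box bound by NF-Y, and the windows of H2-Aa and H2-Eb1 are shown because both genes were highest in knockout library 4. They lie at chr17:34287824-34288073 on the minus strand and chr17:34305617-34305866 on the plus strand (RefSeq, GRCm38.p6), and capitals mark the 6 motifs above.
H2-Aa: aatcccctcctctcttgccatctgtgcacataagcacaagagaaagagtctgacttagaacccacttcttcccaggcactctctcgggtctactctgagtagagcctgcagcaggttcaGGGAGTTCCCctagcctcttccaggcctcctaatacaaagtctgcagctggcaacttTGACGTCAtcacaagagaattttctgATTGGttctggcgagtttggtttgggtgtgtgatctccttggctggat
H2-Eb1: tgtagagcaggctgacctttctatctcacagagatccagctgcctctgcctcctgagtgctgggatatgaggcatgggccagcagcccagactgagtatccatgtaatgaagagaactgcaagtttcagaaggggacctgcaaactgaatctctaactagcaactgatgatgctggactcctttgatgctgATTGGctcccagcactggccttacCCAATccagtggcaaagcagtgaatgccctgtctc
ATTGG was found in both windows. TGACG and the NF-kB type site were found in that of H2-Aa and not in that of H2-Eb1, and the interferon response and GAS letters in neither.

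Constitutive proteasome genes had fitted values above 0 for 14 of 17 tested, with a median of 0.25, 0 called and 3 at an unadjusted p below 0.05, all higher, as against the 7.82% above. The 3 were 0 without wild-type library 1 or 2 and with the replicate block. Of all tested genes, 387 of 12465, 344 of 12469 and 203 of 12338 were then higher at such a p. The 3 were 7 without knockout library 1 (1619 of 12283 tested genes) and 8 with wild-type library 3 left out (1511 of 12487). Each of the last 2 fits also had 1 proteasome gene lower at such a p, as against 1502 and 1281 tested genes. The median of the 17 genes was 0.15 when wild-type library 1 was left out. Psma7 (881 bases) was at 0.75 (SE 0.26, edgeR adjusted p = 0.329), and without knockout library 1 at 0.88 (edgeR adjusted p = 0.0692, DESeq2 adjusted p = 0.00461). The DESeq2 fit without that library was added after seeing the data and called 8.61% of genes. Psmb3 had 0.36, Psma6 0.36 and Psmb5 the value above. With the gene length correction the median of these 17 genes was -0.03, with 6 of them above 0 and none above 0.44, and Psmb3 was at -0.02.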

How the data were processed

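The authors deposited 1 gene table holding, per the file headers, a count of reads per gene for each library, a percent of gene length covered and an RPKM value. The deposited RPKM was recomputed from the counts, library totals and lengths and matched, so it was not tested. The deposited coverage percent was used only to describe genes. The sources used here name no aligner, counting method, strand setting or build. The 10 genes, gene lists and comparisons were chosen with earlier results of these data known. Reads were summed over lines that share a gene identifier (113 identifiers). Of 196 list entries, 188 matched a gene.

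Counts were tested in R 4.3.3 with edgeR 4.0.16 (filterByExpr, TMM scaling, robust quasi-likelihood F test, no covariate), with Benjamini-Hochberg adjustment over all tested genes, and with DESeq2 1.42.0 as an alternative. Ratios used exact permutation over 56 divisions. A floor of 3 reads was 0.278 to 0.619 CPM, which covers counting error only. All pairs of libraries differed by more than sampling noise. Beyond the 10 genes, Stab1, any gene called by edgeR and the 4 tested genes with the smallest p in each of the 6 pathway lists (not the marker lists) were named, with Psmb5, Psmb6, Psmb7, Psmb10, Tap2, H2-Q10, Ciita and Nlrc5. Markers named by their calls, their abundance or their zeros were chosen after their values were seen. Alternatives were a block for the replicate number, dropping 1 library at a time, DESeq2 size factors, no filter, and, chosen after seeing the data, no robust shrinkage, DESeq2 without knockout library 1 and a length correction by a loess curve (span 0.5) of each library's deviation in log2 CPM on gene length. The analysis was tested on simulated data. Promoter sequences were taken from RefSeq (GRCm38.p6), where 8 of the 10 genes had an entry, and aligned with Biopython 1.88. The alignment of best matching stretches was chosen after the end-to-end result was seen. Figures were drawn with matplotlib 3.10.9.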

Additional observations from a re-analysis of the deposited data

Results flagged for a closer look

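Among 44 groups of levels checked, 3 had a library far from the rest of its group, where chance alone flags about 1 in 20 groups. Knockout library 4 lay far above the other knockout libraries for H2-Ab1 (28.1 CPM) and for H2-Eb1 (18.4 CPM). Knockout library 2 lay far below the other knockout libraries for the targeted gene Stab1 (0.557 CPM, from 5 reads).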

How the results depend on the processing

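EdgeR called 0 of the 10 genes under each alternative run with it, and DESeq2 called 1, Psmb9, with all libraries and 1 without knockout library 1. The number of called genes, 30, was 134 with DESeq2 and 1057 with DESeq2 without knockout library 1. Leaving out 1 library gave 13 to 122: 122 without knockout library 1, 91, 15 and 13 without wild-type libraries 3, 1 and 2. The median of the processing genes, 0.42, ran from 0.35 to 0.52 (without wild-type library 3) with 1 library left out. With the gene length correction it was 0.23, B2m was at -0.068, H2-Aa at -0.12, Psmb3 at -0.017, Psmb7 at -0.055, Psmb10 at -0.033 and H2-Q10 at -0.065. With 1 library left out, H2-Aa ran from -0.11 to 0.26, H2-Eb1 from -0.13 to 0.21, Cd74 from -0.21 to 0.13 and Tap1 from -0.12 to 0.10. The log2 ratio of Psmb8 to Psmb5 ran from -0.0745 to 0.0624 and that of Psmb10 to Psmb7 from -0.138 to 0.0307. Tap1 was at -0.012 with no filter, -0.0005 with DESeq2 and -0.0798 with DESeq2 without knockout library 1. Replicate numbers did not pair the libraries (correlations 0.12, -0.15 and -0.15). With the replicate block 17 genes were called, H2-Aa was at -0.22 and H2-Eb1 at -0.21. The class II median was then at -0.22 and the ratio of Psmb8 to Psmb5 at 0.0039. In the fit with the block, knockout libraries 4 and 5 do not enter the genotype difference, since no wild-type library shares their replicate numbers. Apart from the length correction, the cause of these shifts was not tested. The depth of knockout library 1 limits genes of a few CPM.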

Other observations

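Of 11 genes through which T and NK cells meet presenting cells, 4 passed the filter. EdgeR called 0 of them, as against 0.243% of all tested genes. Klrk1, which encodes the activating receptor NKG2D, averaged 3.01 ± 0.859 CPM over the 5 knockout libraries and 1.42 ± 0.707 CPM over the 3 wild-type libraries (± SD), and the groups overlapped. Cd86, a costimulatory ligand of presenting cells, was at 4.53 to 7.39 CPM in knockout and 3.40 to 4.51 CPM in wild-type libraries (log2 fold change 0.60, SE 0.22, edgeR adjusted p = 0.332). Cd274, which encodes the inhibitory ligand PD-L1, was at 1.45 to 3.72 CPM in knockout and 4.79 to 5.57 CPM in wild-type libraries. Its log2 fold change was -0.91 (SE 0.28, edgeR adjusted p = 0.319). Without knockout library 1, DESeq2 gave Cd274 an adjusted p of 0.0369. That fit was added once the data had been seen and called 8.61% of genes. Cd4 was at 0.557 to 3.52 CPM against 0.661 to 0.801 CPM, which overlap.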
